A study of Mus musculus with 4 samples.

Results

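The 32 genes described here are nuclear receptors, namely 15 listed by name, comprising the PPAR, RAR, RXR and thyroid hormone receptor genes, *Vdr*, *Esr1*, *Esrra* and *Rora*, and 17 further genes whose symbol follows the family's numbered form (*Nr*, a subfamily number, a letter and a number). They were taken from the 19938 genes of the array. The rule uses names only and no measured value, although it was set with earlier results of these data known, and *Nr1d1*, *Nr1d2*, *Nr1h2*, *Nr1h3*, *Nr3c1* and *Nr4a1* to *Nr4a3* were left out of it and counted with the other receptors below. The 32 genes were read by 35 probes, since *Ppara*, *Rxra* and *Vdr* had several, and 0 of their spots carried a flag.

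Nuclear receptors are transcription factors that bind DNA, in many cases as pairs, and that exchange corepressor for coactivator complexes when a small lipophilic ligand such as a retinoid, fatty acid, thyroid hormone or steroid occupies their ligand pocket. The retinoid X receptors are the shared partner of many of them, including the retinoic acid, vitamin D, thyroid hormone and peroxisome proliferator-activated receptors, and several orphan members repress transcription from the same DNA elements. In macrophages, ligand-bound members of the family are known to set lipid handling and to restrain inflammatory genes.

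The cells were peritoneal macrophages, the phagocytes of the abdominal cavity, of C57BL/6 mice grown in plates, and the study's methods describe wild-type male animals. In the LPS group, 2 samples had received 100 ng/ml lipopolysaccharide, the cell wall component of Gram-negative bacteria sensed by Toll-like receptors, for 6 h, and in the PBS group 2 samples had received phosphate-buffered saline for 6 h. Total RNA of each sample was labelled with Cy5 and read on 1 single-colour Mouse OneArray Plus array. The labels call the samples biological replicates 1 and 2 without naming separate mice or cultures, and the p-values below therefore cover only the variation seen among these 4 samples, which may be technical.

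The LPS arrays had median raw signals of 683 and 1054 and the PBS arrays 1026 and 1047, and the array of LPS replicate 1 stood apart, with the lowest median, 55.8% of probes above background against 61.7% to 63.3% on the other arrays, and all 60 signals at or below 0. A probe was called above background where its deposited detection p was under 0.05. Of 10 macrophage markers 9 were measured, and on each LPS array 9 of them, and on the PBS arrays 9 and 8, were above background. Markers of other cells were present too. Summed normalized signals of the 7 mesothelial markers were 20803 and 58886 on the LPS arrays and 25343 and 66854 on the PBS arrays, and those of the 6 fibroblast markers 85173 and 276580 with LPS against 174283 and 211847 with PBS. Of 6 B cell markers 3 were above background on all 4 arrays (*Cd79a*, *Cd79b* and *Pax5*), and of 5 neutrophil markers measured *Mpo* was, whereas *Ms4a1* (B cell) and *S100a8* (neutrophil) were above background on none. Above background on all 4 arrays were also 3 of 6 T cell, 3 of 5 mast cell and 2 of 3 eosinophil markers measured. Among all markers *Fcgr1* (macrophage) and *Lck* (T cell) passed the test, both higher with LPS. The other T cell markers lay on both sides. Their log2 fold changes were −0.43 for *Cd3e*, −0.18 for *Cd3d*, 0.32 for *Cd3g*, 0.51 for *Cd4* and 0.53 for *Cd8a*.

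The upstream sequences of *Rxra*, *Nr2f6* and *Nr0b1* are shown first, as the regulatory DNA nearest to these genes. *Rxra* was the gene that passed the test. *Nr2f6* followed it in lower signal among the receptors above background on every array and with groups that did not overlap. *Nr0b1* had the highest fold change, although several receptors changed more in the lower direction. The sequences are the 250 bases before a transcription start in RefSeq on build GRCm38.p6, written from 5′ to 3′ on the gene's strand. *Rxra* has an upstream start at chr2:27676951-27677200 (plus strand) and a downstream one at chr2:27709042-27709291 (plus strand), *Nr2f6* lies at chr8:71381953-71382202 (minus strand) and *Nr0b1* at chrX:86191525-86191774 (plus strand). Capitals mark AGGTCA, the element that many receptors bind, or GGGCGG, the GC box bound by Sp factors, on either strand; neighbouring GC boxes can share a base.
Rxra upstream start: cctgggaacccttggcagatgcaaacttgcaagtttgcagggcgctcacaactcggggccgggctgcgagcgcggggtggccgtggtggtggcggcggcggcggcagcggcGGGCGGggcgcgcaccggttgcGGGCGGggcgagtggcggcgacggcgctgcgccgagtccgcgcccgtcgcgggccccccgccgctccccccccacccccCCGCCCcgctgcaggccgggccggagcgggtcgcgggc
Rxra downstream start: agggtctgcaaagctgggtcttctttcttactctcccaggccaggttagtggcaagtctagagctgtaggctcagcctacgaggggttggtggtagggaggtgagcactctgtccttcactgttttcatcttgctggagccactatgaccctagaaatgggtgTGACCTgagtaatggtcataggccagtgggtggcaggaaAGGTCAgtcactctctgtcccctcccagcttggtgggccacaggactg
Nr2f6: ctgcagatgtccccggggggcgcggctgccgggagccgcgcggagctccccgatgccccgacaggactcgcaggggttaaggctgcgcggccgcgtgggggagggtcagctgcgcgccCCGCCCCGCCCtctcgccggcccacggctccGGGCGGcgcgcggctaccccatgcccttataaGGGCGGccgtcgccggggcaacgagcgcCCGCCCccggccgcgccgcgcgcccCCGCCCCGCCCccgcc
Nr0b1: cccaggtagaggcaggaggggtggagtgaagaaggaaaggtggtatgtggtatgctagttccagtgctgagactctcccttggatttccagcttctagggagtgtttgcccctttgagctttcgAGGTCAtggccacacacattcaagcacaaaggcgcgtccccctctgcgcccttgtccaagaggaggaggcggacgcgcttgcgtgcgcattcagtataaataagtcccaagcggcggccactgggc

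The upstream *Rxra* sequence was 81.2% G or C with 40 CpG dinucleotides and 3 GC boxes, whose first bases lay 139, 117 and 38 bases before the start. The downstream one had 55.2% G or C, 1 CpG and 2 copies of AGGTCA, at 87 and 48 bases before the start. The *Nr2f6* sequence resembled the upstream *Rxra* start, with 82.4% G or C, 42 CpG and 7 GC boxes, and that of *Nr0b1* held 11 CpG and 1 AGGTCA. Over the family, 30 members had an entry, with 44 starts. Of these 10 (22.7%, in 9 members) held AGGTCA, against 14% of 32851 starts of all genes, and 19 (43.2%, in 15 members) held a GC box, against 32.7%. The AP-1 site TGANTCA, searched on both strands like the others, was present at 1 start (2.27%), that of *Nr1i3*, against 6.75% of all starts, and the kappaB consensus at 2 starts (4.55%), both of *Rara* and overlapping, against 3.90%. The member starts were richer in G and C than all starts, with medians of 58.4% against 52.4% and of 10.5 against 6 CpG. The motif counts are letter matches, not adjusted for base composition and with no measurement of binding.

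Across the family, *Rxra* was the only receptor that passed the test (limma with Benjamini-Hochberg adjustment over all genes, adjusted p under 0.05), and it was lower with LPS. This is 1 of 32 members (3.12%), against 5.54% of all genes in either direction. By direction, 1 member was lower, against 2.32% of all genes (462 genes), and 0 were higher, against 3.22% (642 genes). Of the members, 14 were above background on all 4 arrays, 10 on 1 to 3 arrays and 8 on none; the 24 with signal on at least 1 array are 75% of the family, close to the 74.1% of all genes. No member was removed for low signal before the test.

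Below that threshold more receptors lay lower than higher with LPS. At an unadjusted p under 0.05, 6 members (18.8%) were lower, *Rxra*, *Rxrb*, *Nr2f6*, *Nr2c1*, *Nr2c2* and *Rora*, against 13.9% of all genes, and 2 (6.25%) were higher, *Nr0b1* and *Nr3c2*, against 12%. Both LPS arrays lay below both PBS arrays for 13 members (40.6%, against 27.5% of all genes) and above them for 9 (28.1%, against 32.2%). The median log2 fold change was −0.27 over the 32 members, beside 0.04 over all genes. By fitted sign 18 members were lower and 14 higher, and 47.5% of all genes were lower. The 6 members with a log2 fold change of −1 or less (9.19% of all genes) were *Rxra*, *Rarb*, *Nr2f2*, *Rarg*, *Rora* and *Nr2f6*, while 0 members reached 1 or more (5.34% of all genes).

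The values were also compared array by array. LPS replicate 1 gave the lowest of the 4 values for 17 of the 32 members, and the share of all genes for which it did so was not counted. On that array 14 members were above background, against 21 on each of the other arrays. The LPS arrays differed by over 1 log2 unit for 5 members, with replicate 1 lower each time (9.71% of all genes differed by that much), and the PBS arrays for 3 (4.81% of all genes). The median over the members was −0.055 without LPS replicate 1, −0.56 without LPS replicate 2, −0.28 without PBS replicate 1 and 0.0014 without PBS replicate 2. By fitted sign 17 members were lower without LPS replicate 1 and 16 without PBS replicate 2.

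**Figure D1:**
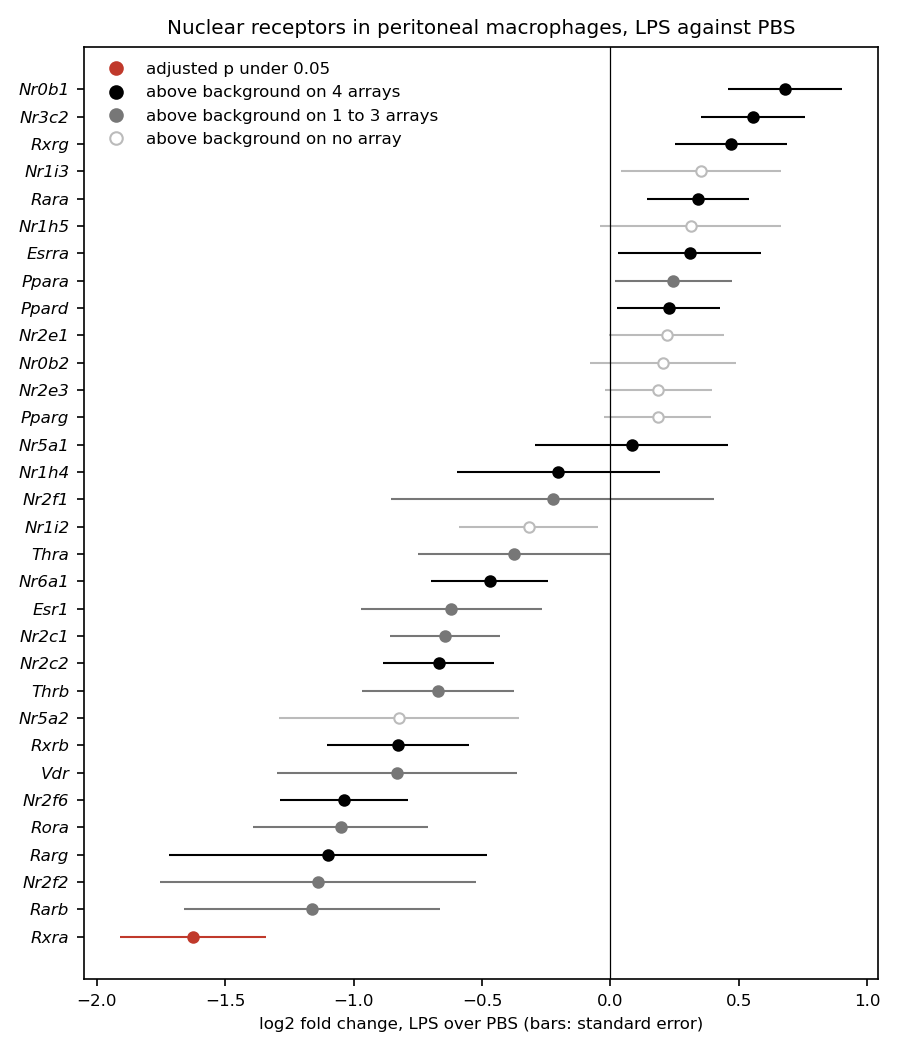
Log2 fold change of the 32 nuclear receptors, LPS over PBS, on the horizontal axis, with the standard error of the limma fit as bars (2 arrays per group). *Rxra* (red, −1.63) is the member past the test, black and grey points were above background on all 4 or on 1 to 3 arrays, and the 8 open points on none; no point lies above 0.68.

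*Rxra*, the retinoid X receptor best known from macrophages and other myeloid cells, had raw signals of 8082 and 6721 in the LPS samples, against 28928 and 23338 in the PBS samples. On the quantile-normalized log2 scale, used for all signals below unless called raw, the values were 13.31 and 12.67 with LPS and 14.59 and 14.64 with PBS (12.99 ± 0.46 and 14.62 ± 0.03, SD, n = 2 each). Both LPS arrays lay well below both PBS arrays, with replicate 2 the lower of them. The log2 fold change was −1.63 ± 0.28 (SE; 95% interval −2.35 to −0.90), a 3.09-fold lower signal, with an adjusted p of 0.0431 by limma. In a population of cells, less RNA per cell and fewer cells that hold it cannot be told apart. The dimmer probe of *Rxra* gave the same picture, with 12.88 and 12.19 in the LPS samples against 14.05 and 14.18 in the PBS samples and a log2 difference of −1.58.

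The fold change of *Rxra* was recomputed differently in 9 of 15 alternative analyses, where it stayed between −1.90 and −1.31; the other 6 change only the test or the genes tested. Its place past the threshold was less stable. The limma adjusted p was 0.119 with scaling to the 75th percentile of each array, 0.108 with the authors' scaled table, 0.0605 with cyclic loess and 0.0519 with the replicate number as a block. Leaving out any single array also ended the call, with limma adjusted p values of 0.0546 and 0.0655 without LPS replicates 1 and 2 and of 0.198 and 0.250 without PBS replicates 1 and 2. In those fits 1 group has a single array, assumed to vary like the other group, and a residual degree of freedom is lost.

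**Figure D2:**
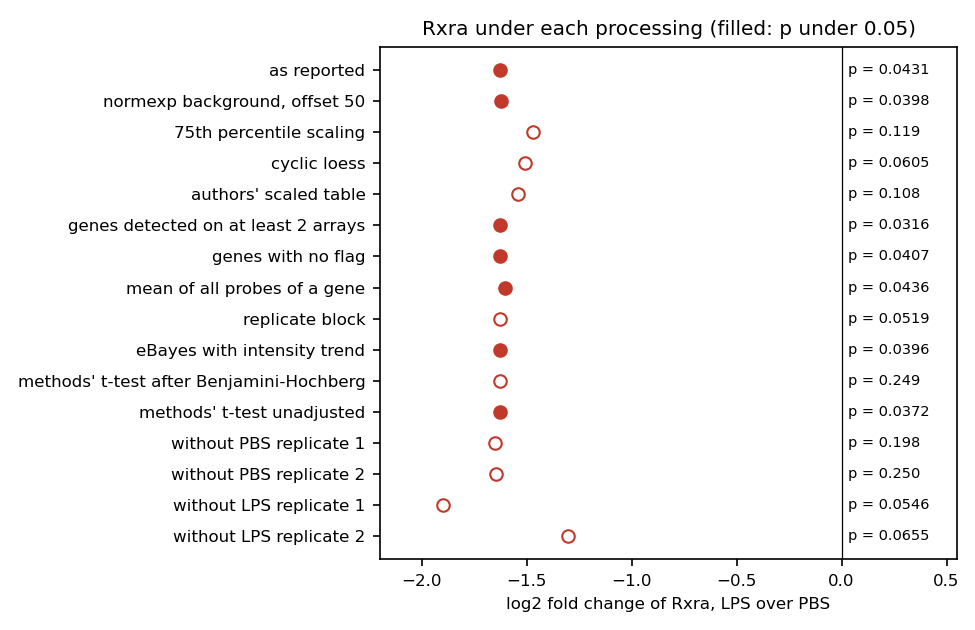
Log2 fold change of *Rxra*, LPS over PBS, on the horizontal axis under the reported processing and each of 15 alternatives, with p beside each point (adjusted over all genes except where the row says unadjusted). All points lie left of 0, between −1.90 and −1.31, and filled points mark p under 0.05.

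*Rxrb*, the more uniformly expressed partner, pointed the same way with a smaller difference. It had 13.20 and 13.67 in the LPS samples and 14.07 and 14.45 in the PBS samples, so that the groups did not overlap. The log2 fold change was −0.83 ± 0.28 (SE; limma adjusted p = 0.151). *Rxrg*, known mainly from muscle and brain, lay on the other side, with 10.07 and 9.89 with LPS against 9.63 and 9.40 with PBS and a log2 fold change of 0.47 ± 0.22 (limma adjusted p = 0.248). Its raw signals overlapped, at 777 and 1053 in LPS samples and 846 and 754 in PBS samples, and the groups separated only after scaling between arrays.

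Among the retinoic acid receptors, which bind all-trans retinoic acid as partners of the RXRs, no gene passed the test and the widest values were those of single arrays. *Rarg* had 10.87 and 11.50 in the LPS samples and 13.17 and 11.40 in the PBS samples. The array of PBS replicate 1 was high alone, and PBS replicate 2 lay between the LPS arrays, so that the log2 fold change of −1.10 ± 0.62 (limma adjusted p = 0.320) was smaller than the gap between the PBS arrays. Leaving out PBS replicate 1 gave −0.21 and leaving out PBS replicate 2 gave −2.03, and neither value passed the test. *Rarb*, itself a classical retinoic acid target gene, was above background only on PBS replicate 1. It had 8.24 and 8.29 with LPS against 10.15 and 8.70 with PBS. Set against the background of the LPS arrays, the bound was at least 1.20-fold lower (limma adjusted p = 0.222). The interval of the log2 fold change, −2.43 to 0.11, included no change, so that a lower signal was not shown. The bound rests on PBS replicate 1, as the log2 fold change was −0.42 without that array and −1.94 without PBS replicate 2. *Rara*, the widely expressed form, had close replicates after scaling between arrays, with 10.81 and 10.79 in LPS samples against 10.42 and 10.49 in PBS samples. Its raw signals overlapped, at 1284 and 1910 in LPS samples and 1504 and 1587 in PBS samples. Its log2 fold change of 0.34 ± 0.20 did not pass the test (limma adjusted p = 0.334), and the interval of the difference was −0.17 to 0.85.

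**Figure D3:**
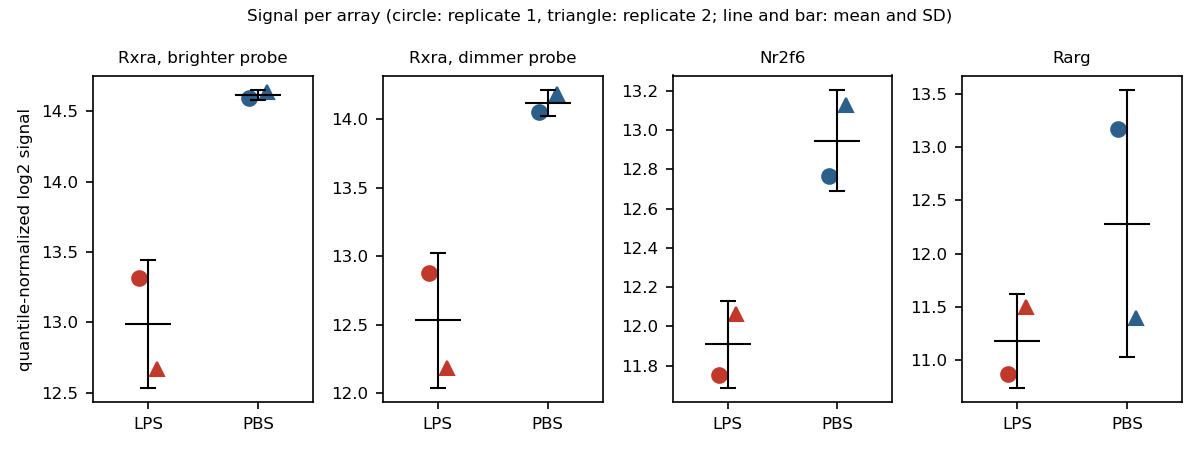
Quantile-normalized log2 signal (vertical axis, own scale in each panel) of both *Rxra* probes, *Nr2f6* and *Rarg* in LPS samples (left) and PBS samples (right); points are single arrays, lines and bars are the mean and SD of 2. The groups are apart for both *Rxra* probes and *Nr2f6*, whereas of the PBS arrays of *Rarg*, at 13.17 and 11.40, the lower lies between the LPS arrays.

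The peroxisome proliferator-activated receptors, fatty acid sensors that also pair with RXRs, gave no gene past the test. *Ppard*, which is broadly expressed, had 11.69 and 11.68 with LPS and 11.40 and 11.51 with PBS. This is a log2 fold change of 0.23 ± 0.20 (limma adjusted p = 0.505), with an interval of −0.29 to 0.74. A change of more than 1 log2 unit either way lies outside that interval. The raw signals of *Ppard* overlapped, at 2413 and 3435 with LPS and 3077 and 3145 with PBS. *Ppara*, the activator of fatty acid oxidation in liver, was above background only on LPS replicate 2, its values were 8.76 and 8.91 with LPS against 8.75 and 8.43 with PBS, and its dimmer probe was above background on no array. *Pparg*, the adipocyte regulator that is also studied in macrophages, was above background on no array, with raw signals of 44 and 84 in LPS samples and 89 and 130 in PBS samples. At this sensitivity no comparison of *Pparg* could be made.

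The receptors for thyroid hormone and vitamin D and the sterol-binding receptor *Rora* were above background on part of the arrays only. *Rora*, whose product also belongs to the circadian loop, had 9.24 and 9.81 in the LPS samples and 10.24 and 10.92 in the PBS samples. The groups did not overlap, and the log2 fold change was −1.05 ± 0.34 (limma adjusted p = 0.144), with LPS replicate 1 not above background. *Vdr*, the vitamin D receptor, had 8.47 and 9.78 with LPS and 9.79 and 10.12 with PBS, that is, LPS replicate 2 lay beside the PBS arrays and replicate 1 was low alone and not above background. Its log2 fold change was −0.83 ± 0.47 (limma adjusted p = 0.318), and its other probe gave −0.35. Leaving out LPS replicate 1 gave −0.18 and leaving out LPS replicate 2 gave −1.50. *Thrb*, a thyroid hormone receptor, had 8.54 and 9.0 with LPS against 9.17 and 9.71 with PBS (log2 fold change −0.67 ± 0.30, limma adjusted p = 0.232).

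*Thra*, the other thyroid hormone receptor gene, and *Nr1h4*, the bile acid receptor FXR, followed the replicate number more than the treatment. *Thra* had 8.51 and 9.26 in the LPS samples and 8.93 and 9.60 in the PBS samples, with only the replicate 2 arrays above background. *Nr1h4* had 9.91 and 10.74 with LPS against 10.18 and 10.88 with PBS, and *Nr2f1*, the orphan receptor also called COUP-TFI, 7.48 and 9.05 with LPS against 7.95 and 9.03 with PBS. In all 3 both replicate 2 arrays lay above both replicate 1 arrays, and the log2 fold changes of −0.38, −0.20 and −0.22 (limma adjusted p = 0.549, 0.766 and 0.841) turned positive when LPS replicate 1 was left out, at 0.0040 for *Thra*, 0.22 for *Nr1h4* and 0.55 for *Nr2f1*. *Thra* overlaps *Nr1d1* on the opposite strand, and which transcripts its probe reads was not analysed here.

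Of the 7 mesothelial markers, 3 moved with the replicate number in the same way. *Upk3b*, a mesothelial membrane protein gene, had 12.23 and 14.80 in the LPS samples and 13.12 and 14.87 in the PBS samples, *Wt1* 13.21 and 14.48 with LPS against 13.33 and 14.75 with PBS, and *Lrrn4* 10.41 and 12.28 with LPS against 11.59 and 12.73 with PBS. The list's summed signal, given above, was highest on both replicate 2 arrays. The other 4 markers did not have both replicate 2 arrays on top: *Krt19* had raw signals of 1193 and 2023 with LPS against 2309 and 1679 with PBS, and *Krt8* was high on LPS replicate 1 alone, with raw signals of 2187 and 14 with LPS against 33 and 79 with PBS. Of its 7 genes, 5 and 4 were above background on the LPS arrays and 5 and 4 on the PBS arrays; *Krt18* was above background on none and *Msln* on PBS replicate 1 alone. *Nr2f2* (COUP-TFII), which is known from mesothelium and stroma, was also low on LPS replicate 1, at 8.71, with 10.55 on LPS replicate 2 and 10.65 and 10.89 on the PBS arrays. Both replicate 2 arrays were also on top for markers of other lists, among them *Gata6* (macrophage), *Dcn* and *Col1a2* (fibroblast) and *Pax5* (B cell). *Dcn* had 15.54 and 17.48 with LPS against 17.09 and 17.37 with PBS. *Adgre1* (macrophage) and *Cd79b* (B cell) had the reverse order, and other markers had neither. The order was thus not particular to mesothelial markers, and its share among all genes was not counted. The part that cells other than macrophages had in the receptor signals was not tested.

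**Figure D4:**
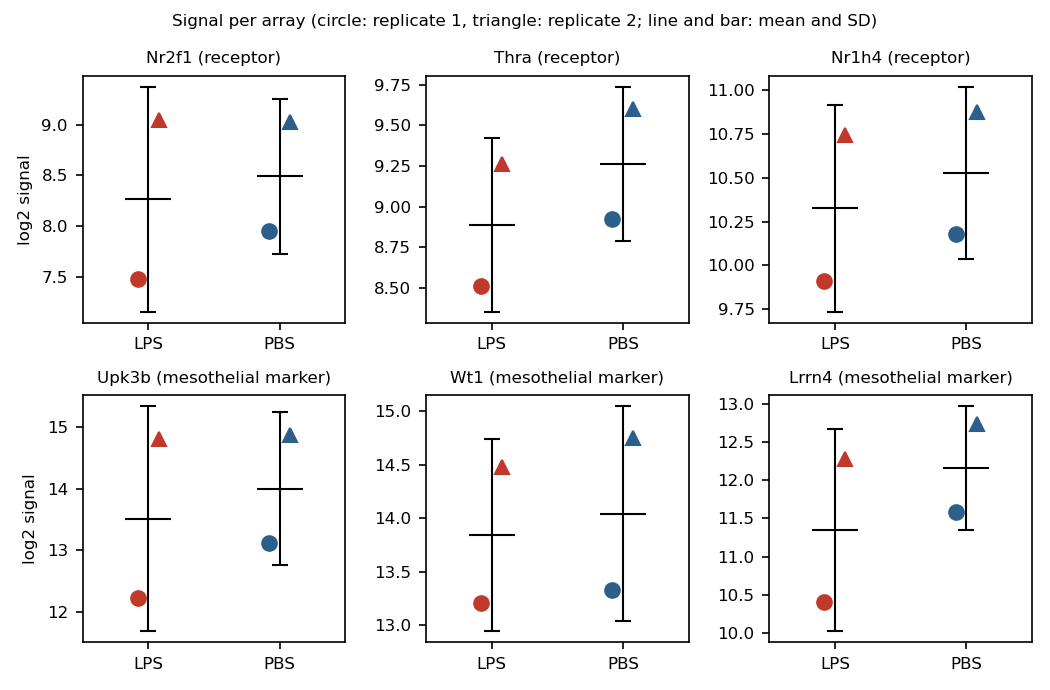
Log2 signal (vertical axis, own scale in each panel) of 3 receptors (top) and 3 mesothelial markers (bottom) in LPS samples (left) and PBS samples (right); circles are replicate 1, triangles replicate 2, lines and bars the mean and SD of 2. In all 6 panels both triangles lie above both circles. Only genes with this order are drawn. The mesothelial markers not drawn did not have it, and some markers of other cells, also not drawn, did.

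The orphan receptors of the NR2 subfamily, many of which repress transcription at retinoid elements, are represented by 7 genes, of which none passed the test. Both LPS arrays lay below both PBS arrays for 4 of the 7, *Nr2f6*, *Nr2f2*, *Nr2c1* and *Nr2c2*. Among all genes 27.5% had that order, and 7 genes are few to set against this share. *Nr2f6*, a repressor of cytokine genes in T cells, had 11.75 and 12.07 in the LPS samples and 12.76 and 13.13 in the PBS samples, with raw signals of 2527 and 4465 with LPS against 8194 and 8913 with PBS. The groups did not overlap on either scale. Its log2 fold change was −1.04 ± 0.25 (SE; 95% interval −1.67 to −0.40), a 2.05-fold lower signal, and its limma adjusted p of 0.0842 was the lowest among the members after *Rxra*. *Nr2f2* had a log2 fold change of −1.14 ± 0.61 (limma adjusted p = 0.303). That value hung on the LPS arrays, being −0.22 without LPS replicate 1 and −2.09 without LPS replicate 2. In the second of these fits it passed the threshold (limma adjusted p = 0.0397), but there the group is LPS replicate 1 alone, where *Nr2f2* was not above background, with the spread taken from the PBS arrays.

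The testicular orphan receptors *Nr2c1* and *Nr2c2*, which compete with other receptors for direct repeats of AGGTCA, had tight replicates. *Nr2c2* had 12.42 and 12.70 in the LPS samples and 13.21 and 13.25 in the PBS samples, and its log2 fold change was −0.67 ± 0.22 (limma adjusted p = 0.145). *Nr2c1* was above background on neither LPS array, at 9.12 and 8.87, but on both PBS arrays, at 9.59 and 9.70, and was at least 1.39-fold lower with LPS (limma adjusted p = 0.152). *Nr2e1*, a neural stem cell factor, and *Nr2e3*, a photoreceptor factor, were above background on no array.

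**Figure D5:**
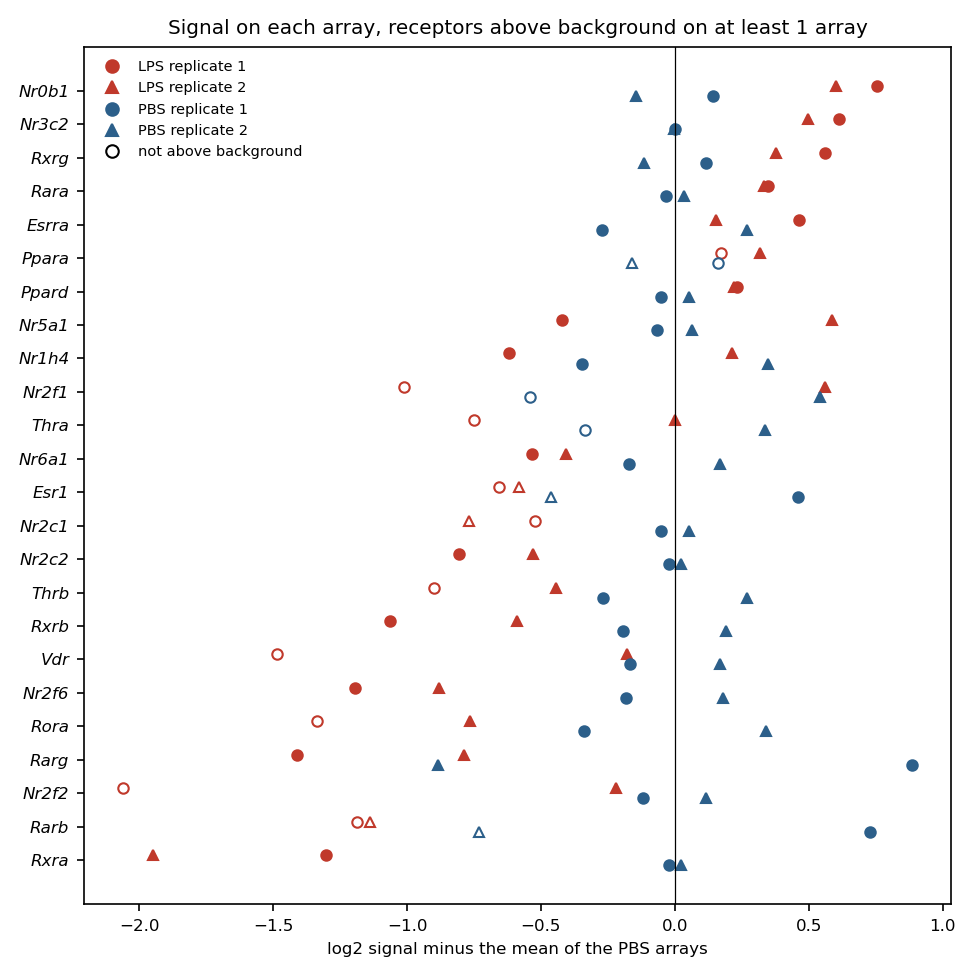
Log2 signal of each array minus the mean of the PBS arrays (horizontal axis) for the 24 receptors above background on at least 1 array; red is LPS, blue PBS, circles replicate 1, triangles replicate 2, and open symbols were not above background. The red points lie left of the blue ones for *Rxra*, *Rarb*, *Nr2f2*, *Rora*, *Nr2f6*, *Vdr*, *Rxrb*, *Thrb*, *Nr2c2*, *Nr2c1*, *Esr1* and *Nr6a1*. They lie right of them for *Nr0b1*, *Nr3c2*, *Rxrg*, *Rara*, *Ppara* and *Ppard*.

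Of the receptors for steroids and their relatives, none passed the test. *Nr3c2*, the mineralocorticoid receptor, had 11.07 and 10.96 with LPS and 10.46 and 10.46 with PBS, and its log2 fold change was 0.55 ± 0.20 (limma adjusted p = 0.173). Its raw signals were 1541 and 2130 in LPS samples against 1545 and 1551 in PBS samples, so that before scaling only LPS replicate 2 stood above the PBS arrays. *Esr1*, the estrogen receptor alpha gene, was above background on PBS replicate 1 alone. It had 8.68 and 8.75 in LPS samples and 9.79 and 8.87 in PBS samples, with a bound of at least 1.12-fold lower (limma adjusted p = 0.322). The interval of its log2 fold change, −1.51 to 0.28, included no change, so that a lower signal was not shown. Without PBS replicate 1 the log2 fold change was −0.15, and without PBS replicate 2 it was −1.11. *Esrra*, the estrogen-related receptor that drives mitochondrial genes, overlapped between the groups, at 12.49 and 12.17 with LPS and 11.75 and 12.29 with PBS (log2 fold change 0.31 ± 0.28, limma adjusted p = 0.511, interval −0.40 to 1.02).

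The remaining members belong to subfamilies known from steroidogenic tissue, germ cells and liver. Whether their probes also read other transcripts was not checked. *Nr0b1*, a receptor without a DNA-binding domain of the usual kind that represses steroidogenic genes, had the highest fold change of the family, with 11.79 and 11.64 in the LPS samples and 11.18 and 10.89 in the PBS samples. The log2 fold change was 0.68 ± 0.22 (SE), a 1.60-fold higher signal that did not pass the test (limma adjusted p = 0.147). Its raw signals of 2589 and 3355 with LPS and 2609 and 2076 with PBS overlapped. *Nr5a1*, the activator of the same genes, had 9.44 and 10.45 with LPS against 9.80 and 9.93 with PBS, the LPS arrays lying on either side of the PBS arrays (log2 fold change 0.08 ± 0.38, limma adjusted p = 0.903, and −0.022 with cyclic loess). *Nr6a1*, the germ cell nuclear factor, had 10.69 and 10.81 with LPS against 11.05 and 11.39 with PBS (log2 fold change −0.47 ± 0.23, limma adjusted p = 0.264).

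The 8 receptors above background on no array were *Nr0b2*, *Nr1h5*, *Nr1i2*, *Nr1i3*, *Nr2e1*, *Nr2e3*, *Nr5a2* and *Pparg*. Several of them, such as the xenobiotic sensors *Nr1i2* and *Nr1i3*, the repressor *Nr0b2* and *Nr5a2*, are known from liver and gut. Their raw signals reached at most 446 and 525 on the LPS arrays and 531 and 479 on the PBS arrays. Some of them count above among members whose groups did not overlap, *Nr5a2* among the lower and *Nr2e1*, *Nr2e3* and *Pparg* among the higher, although none of those values was above background. A transcript below the sensitivity of the array cannot be told apart from an absent one.

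Genes that act with the receptors were counted in 8 lists of 125 genes, 123 of them measured, and 4 passed the test as higher and 4 as lower with LPS. These 8 are 6.5% of the measured list genes, near the 5.54% of all genes, and 3.25% in each direction, beside 3.22% of all genes higher and 2.32% lower. Of 16 coactivators 2 were higher and 0 lower (median log2 fold change 0.10, beside 0.04 over all genes). Before adjustment 5 of them were higher and 2 lower, beside 12% and 13.9% of all genes. *Ncoa7* had raw signals of 16529 and 25839 in the LPS samples and 4898 and 4610 in the PBS samples, a log2 fold change of 2.36 ± 0.23 (limma adjusted p = 0.0104); its product was first described as a coactivator of the estrogen receptor. *Kat2b*, a histone acetyltransferase recruited by coactivators, was 3.19-fold higher (log2 fold change 1.67 ± 0.25, limma adjusted p = 0.0316), with 11.83 and 12.33 with LPS against 10.37 and 10.44 with PBS, where only 1 array was above background. Of 12 corepressors 0 passed the test by limma (median 0.03), with 1 higher and 2 lower before adjustment, beside 12% and 13.9% of all genes.

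Among genes downstream of the receptors, the list of retinoid genes held 1 higher and 1 lower of 20 (median 0.30). *Dhrs3*, a retinaldehyde reductase gene induced by retinoic acid, had raw signals of 41575 and 27737 with LPS against 214724 and 111396 with PBS and was 4.70-fold lower (log2 fold change −2.23 ± 0.37, limma adjusted p = 0.0399). *Tgm2*, transglutaminase 2, also known as retinoic acid-inducible, moved the other way, with raw signals of 81947 and 94900 with LPS against 39751 and 33089 with PBS, 2.43-fold higher (limma adjusted p = 0.0349). The called retinoid genes lay on opposite sides. Before adjustment 6 of the 20 were higher and 2 lower, beside 12% and 13.9% of all genes. Of 23 PPAR target genes 1 was lower and 0 higher (median −0.55): *Acadm*, the medium-chain acyl-CoA dehydrogenase of fatty acid oxidation, had raw signals of 4193 and 9407 in LPS samples against 39321 and 27283 in PBS samples and was 4.54-fold lower (limma adjusted p = 0.0246). Before adjustment, 1 PPAR target (4.35%) was higher and 5 (21.7%) were lower at the same threshold, beside 12% and 13.9% of all genes.

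Of 10 thyroid hormone genes 1 was lower (median −0.11), and before adjustment 1 was higher and 2 lower, beside 12% and 13.9% of all genes. *Dio2*, the deiodinase that activates thyroid hormone, had raw signals of 751 and 857 in the LPS samples and 7173 and 7830 in the PBS samples, and its log2 fold change of −2.95 ± 0.26, a 7.70-fold lower signal (limma adjusted p = 0.00834), was the largest among the called genes of these lists. Of 15 steroid enzymes and receptor chaperones 1 was higher (median 0.15), and before adjustment 3 were higher and 2 lower, beside 12% and 13.9% of all genes. The gene past the test was *Cyp19a1*, the aromatase that makes estrogens. It had raw signals of 1919 and 3102 with LPS against 442 and 770 with PBS (5.12-fold, limma adjusted p = 0.0209). For *Cyp19a1* only 1 of the PBS arrays was above background. Of 12 vitamin D genes, 6 of them above background on at least 1 array, 0 passed the test by limma (median 0.20). Before adjustment 1 was higher and 1 lower, beside 12% and 13.9% of all genes. Of the 15 other nuclear receptors 1 was lower (median 0.19), and before adjustment 4 were higher and 1 lower, beside 12% and 13.9% of all genes. The lower one was *Nr1d1*, a heme-binding circadian repressor, with raw signals of 118 and 179 in LPS samples, not above background, against 1005 and 779 in PBS samples, at least 1.41-fold lower (limma adjusted p = 0.0167).

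Each of these 8 genes kept its direction in every alternative that recomputed it. With scaling to the 75th percentile or with the authors' scaled table, only *Ncoa7*, *Dio2* and *Nr1d1* of them passed the test. Of the list genes, 3 passed without LPS replicate 1 and 10 without LPS replicate 2, while 0 passed without PBS replicate 1 or without PBS replicate 2.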

How the data were processed

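The 4 single-colour arrays (2 LPS, 2 PBS) were deposited by the authors as raw signal intensity per probe, with a detection p-value, used only to call a probe above background and a spot flag of unstated meaning. How background was treated is not stated in these sources; because 60 signals were at or below 0, they were taken as background-subtracted. The authors' second deposited table holds the same intensity values times 1 constant per array (1.29 and 0.959 for LPS, 0.869 and 0.972 for PBS), and served as an alternative.

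Symbols were updated through the mouse RefSeq gene table, and the probe with the highest mean stood for a gene. Of 26423 probes, 22815 had a single symbol, 246 several and 3362 none. Probe sequences were not at hand, and whether a probe also reads related transcripts was not checked for any gene. Signals were quantile-normalized, converted to log2 and compared by moderated linear models (limma 3.58.1, lmFit and eBayes, R 4.3.3) over 19938 genes, with Benjamini-Hochberg adjustment and no filter on dim probes. With 2 residual and 3.11 prior degrees of freedom, precision is limited by the number of arrays; an exact permutation test of 2 against 2 arrays cannot go below p = 0.333. The fit was tested on simulated data. The methods name no test for arrays, and the t-test of their statistics section was run as an alternative.

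Where a gene was above background on no array of a group, the fold is a bound ("at least"), the mean of the brighter group over, on each array, the lowest signal called above background or the probe's own signal, whichever is higher. The bound carries no sampling error, and the mean of the brighter group can include an array not above background. Intervals are 95% intervals of the fit.

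The members and gene lists were chosen with earlier results of these data known. All members are named, and from each list up to 4 genes past the test with the largest change and groups that did not overlap. Upstream sequences and their coordinates are from RefSeq (GRCm38.p6).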

Additional observations from a re-analysis of the deposited data

How the results depend on the processing

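Of 15 alternative analyses, 20 of the 24 receptors above background on at least 1 array kept their direction in each one run for them (the filter on dim genes removed *Rarb*, *Esr1* and *Ppara*), and of 357 receptor values 335 kept direction and side of the threshold. The 1104 genes past the test became 529 with 75th percentile scaling, 438 with the authors' scaled table, 0 with the methods' t-test after Benjamini-Hochberg and 3719 with it unadjusted, and 40 to 1056 when 1 array was left out. The share of calls that were higher with LPS was 58.2%, against 75.2% with 75th percentile scaling and 74.7% with the scaled table, which set the median of all genes at −0.07 instead of 0.04; it was 39.3% without LPS replicate 2 and 97.5% without PBS replicate 2. The 1 receptor past the test became 0 with 75th percentile scaling, cyclic loess, the scaled table and the t-test after adjustment, 6 with the unadjusted t-test, and 0 to 1 without 1 array, where the 1 was *Nr2f2* (without LPS replicate 2) and not *Rxra*. The 8 related genes became 3, 5 and 3 with 75th percentile scaling, cyclic loess and the scaled table, 0 and 25 with the t-test adjusted and unadjusted, and 0 to 10 without 1 array. The receptors' median of −0.27 ranged from −0.56 to 0.0014 without 1 array. The cause of these shifts was not tested.

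With the replicate block, 1165 genes, 0 receptors and 8 related genes passed the test, and the adjusted p of *Rxra* was 0.0519. The labels do not say that a number marks a shared animal or batch, and with only 2 pairs the deviations of LPS and PBS samples of the same number correlated at 0.239 over genes.

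*Nr5a1* turned to −0.022 with cyclic loess and ranged from −0.43 to 0.59 without 1 array, *Nr2f1* from −0.99 to 0.55, *Nr1h4* from −0.63 to 0.22 and *Thra* from −0.76 to 0.0040. Only 14 of the 32 receptors were above background on all 4 arrays, which limits the other values.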
